A study of Mus musculus with 4 samples.

Results

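The 38 genes described here are interferon-stimulated genes, the set that a cell switches on when it senses interferon. They were picked by symbol from the gene names in the scanner files, with chemokine genes left out. The list was chosen with earlier results of these data known. Shares of members set beside those of all genes are therefore descriptions and not an independent test. All 38 were on the array, among 31085 named genes, and were covered by 49 probes, each 60 bases long. The brightest probe stood for each gene, and all 38 of these probes were well above background on all 4 arrays. Of the 49 probes, 46 carried an accession that RefSeq gives the same symbol, and the other 3 (those of Mx1 and Mx2 and the brightest probe of Gbp5) kept the name in the files.

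The study profiled bronchial epithelial cells from mouse lungs in an allergic asthma model with ovalbumin (OVA) as antigen. Its 4 groups were Pla2g3+/+ (wild type) control, Pla2g3-/- control, Pla2g3+/+ antigen challenged and Pla2g3-/- antigen challenged, with 1 array each and RNA pooled from 4 samples per array. Pla2g3 encodes group III phospholipase A2, an enzyme released by cells that cleaves membrane phospholipids. Per the labels' protocols, mice were injected into the peritoneum with 10 µg OVA and 1.3 mg alum on days 0 and 14, then breathed an aerosol of 1% OVA on days 26, 27 and 28, each time for 30 min, and lungs were taken 3 h after challenge. The labels do not say what control mice received, so a challenge difference can include sensitisation. The sources used here do not give the strain, the age, the Pla2g3 allele or whether a pooled sample was 1 mouse.

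Interferons are secreted proteins that infected or alarmed cells release. Type I and type III interferons act on genes through the interferon-stimulated response element (ISRE), which STAT2 and IRF9 help to occupy, and interferon gamma acts through the gamma-activated site (GAS). The airway epithelium is both a source and a target of these signals, and its interferon-stimulated genes are best known for blocking respiratory viruses.

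With 1 array per group, a difference between 2 arrays has no measure of the spread between animals and carries no p-value. On each array the probes printed several times had a median SD of 0.07 (log2) between spots, or 0.09 for a difference, and the scanner's own error of a member's difference was about 0.20. The 4 arrays lay on 1 slide, and 78.7% to 81.5% of probes were well above background. Pla2g3 itself, whose brightest probe lies at chr11:3394109-3394168 (mm9), had log2 levels of −3.05 in wild-type control, 0.14 in control labelled Pla2g3-/-, −2.83 in challenged wild type and 1.07 in challenged labelled Pla2g3-/-. A second, dimmer probe (chr11:3393127-3393186) stood at −5.49, −3.37, −7.11 and −2.56 in the same order. These levels go against the labels, so the arrays are called "labelled Pla2g3-/-", "wild type" is likewise the label, and every genotype difference is a difference between labels. Whether the genotype labels were exchanged was not tested. The sources used here do not say whether the deletion covers either probe. Of the 8 airway and lung epithelial markers, 7 had log2 levels above 1 on every array, among them Scgb1a1 (7.67 to 7.89), Krt5 (5.43 to 5.68) and Foxj1 (3.12 to 3.55), and Sftpc, an alveolar gene, was the exception.

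After challenge, interferon-stimulated genes were higher in both labels by a modest amount. In wild type all 38 members had a difference above 0 by the chosen probes, against 45.6% of all genes measured. Their median was 0.46 (log2) against −0.03 for all genes. Rsad2, Psmb9, Ifih1, Irf9, Cmpk2 and Eif2ak2 were above 0 by less than the scanner's error of about 0.20. Second probes of Cmpk2 (−0.13) and Ifih1 (−0.06) were below 0 there. In cells labelled Pla2g3-/- 37 of 38 were above 0, against 42.2% of all genes, with a median of 0.51 against −0.06. The exception by the chosen probes was Gbp5, at −0.14, whose second probe gave 1.95. Psmb9, Psmb8, Ifi44, Ifih1, Tap1 and Irf9 were above 0 under this label by less than the scanner's error. With the mean of each gene's probes Gbp5 was at 0.91, and Xaf1 at −0.13 was below 0 (quantile normalization also put Psmb9, at 0.01, just below 0). A challenged array was the highest of the 4 for every member, the wild-type one for 25 and the one labelled Pla2g3-/- for 13. Both challenge differences were above 0 for 37 members, against 25.8% of all genes, and each rests on a control array of its own.

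Few members reached 2-fold. In wild type 1 member was at least 2-fold higher (1.89% of all genes) and none was 2-fold lower (1.69% of all genes). In cells labelled Pla2g3-/- 6 were at least 2-fold higher (3.88% of all genes) and none was 2-fold lower (3.38% of all genes). At 1.5-fold the counts were 12 in wild type (4.66% of all genes) and 17 under the Pla2g3-/- label (7.75% of all genes), with 9 members past it in both (2.0% of all genes). On 30 of the 38 probes both challenged arrays were above both control arrays, as on 18.2% of all genes. The other 8 were Irf9, Eif2ak2, Ifit1, Rsad2, Bst2, Ifi44, Gbp5 and Psmb9.

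**Figure D1:**
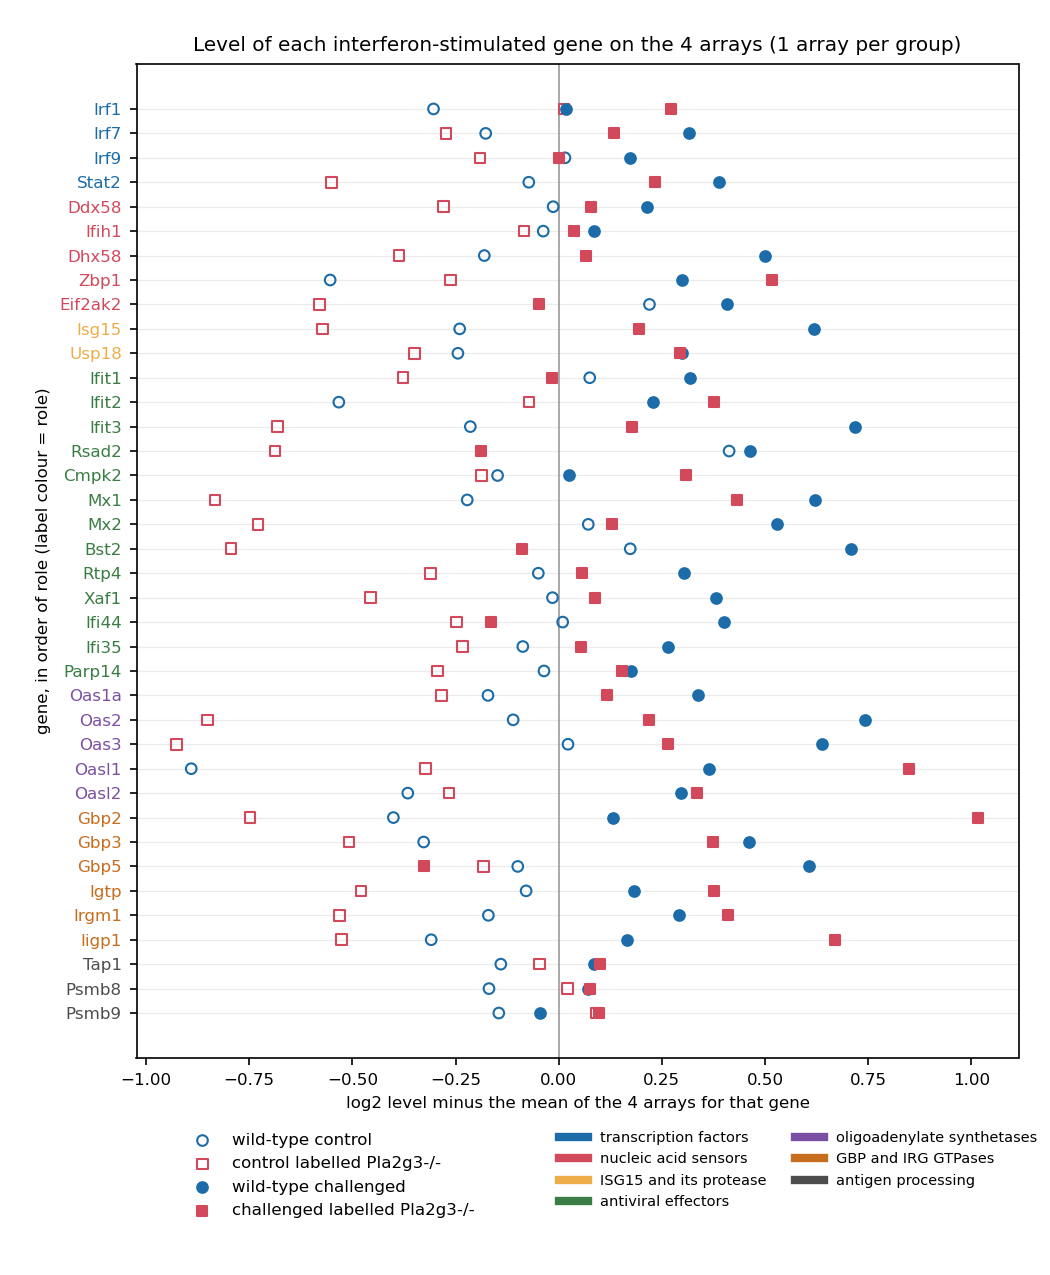
Level of each of the 38 interferon-stimulated genes on the 4 arrays, as log2 level minus that gene's own mean over the arrays (horizontal axis), with genes in rows by role. Circles are wild type, squares are labelled Pla2g3-/-, open symbols are control arrays and filled symbols are challenged arrays. For 30 genes both filled symbols lie to the right of both open ones.

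In bulk RNA, fewer cells of a type and less RNA per cell cannot be told apart, and markers of other cell types differed between the arrays. Of 5 neutrophil markers 4 were on the array, and their summed level (in multiples of the 75th percentile) was 4.71 and 8.55 on the wild-type control and the control labelled Pla2g3-/-, against 15.8 and 56.2 on the corresponding challenged arrays. The 6 T cell markers summed to 27.5 on the control labelled Pla2g3-/- and to between 4.14 and 5.50 on the other 3 arrays, and the 4 markers of developing T cells to 16.6 against 0.341 to 0.952. The 4 B cell markers summed to 4.87 on the wild-type control and to 1.80 to 2.13 elsewhere. The 5 macrophage markers on the array summed to 10.1 on the wild-type control, 9.36 on the control labelled Pla2g3-/-, 6.91 in challenged wild type and 13.6 on the challenged array labelled Pla2g3-/-. All 5 were above 0 after challenge under the Pla2g3-/- label (median 0.90, 42.2% of all genes above 0). In wild type 2 of 5 were (median −0.43, 45.6% of all genes). With challenge all 5 were at least 1.5-fold higher in the label Pla2g3-/- than in wild type (7.87% of all genes), Marco by 2.58 (log2). Csf1r, the brightest of the 5, differed after challenge by only 0.14 under the Pla2g3-/- label. The 8 epithelial markers summed to between 412 and 473. The part of these cells in the differences of the interferon-stimulated genes was not tested.

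To set the differences beside the promoter letters of the genes, RefSeq promoters were searched. RefSeq (GRCm38.p6) gave a window from 250 bases before to 50 bases after the start for 29 of the 38 members (33 windows). The letters of the ISRE core, GAAANNGAAA on either strand, were in the window of 16 of these 29 (55.2%), against 3.99% of 27025 genes. The GAS letters, TTCNNNGAA, which read the same on both strands, were in 9 of 29 (31.0%), against 9.55% of genes. Both motifs were in 5 members and neither in 9. A match is a description of the letters and not a measured site.

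The 250 bases upstream of the start, 5′ to 3′ on the gene's strand, follow for 6 members, with every match in capitals. Gbp2 (chr3:142620413-142620662, plus strand), Oas3 (chr5:120777660-120777909, minus) and Oasl1 (chr5:114922990-114923239, plus) are the members with a window that were at least 2-fold higher after challenge. Isg15 (chr4:156200819-156201068, minus), Irgm1 (chr11:48871421-48871670, minus) and Irf1 (chr11:53769764-53770013, plus) were chosen after their values were seen, to show 3 overlapping ISRE matches, 2 overlapping ones and a GAS match.
Gbp2: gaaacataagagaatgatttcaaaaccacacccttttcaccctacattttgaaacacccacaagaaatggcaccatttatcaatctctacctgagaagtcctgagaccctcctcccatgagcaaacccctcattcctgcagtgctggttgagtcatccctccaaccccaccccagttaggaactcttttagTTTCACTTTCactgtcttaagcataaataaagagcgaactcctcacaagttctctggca
Oas3: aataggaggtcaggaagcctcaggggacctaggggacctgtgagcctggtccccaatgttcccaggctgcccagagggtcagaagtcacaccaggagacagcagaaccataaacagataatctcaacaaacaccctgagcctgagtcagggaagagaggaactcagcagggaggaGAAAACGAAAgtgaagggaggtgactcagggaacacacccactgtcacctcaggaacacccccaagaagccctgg
Oasl1: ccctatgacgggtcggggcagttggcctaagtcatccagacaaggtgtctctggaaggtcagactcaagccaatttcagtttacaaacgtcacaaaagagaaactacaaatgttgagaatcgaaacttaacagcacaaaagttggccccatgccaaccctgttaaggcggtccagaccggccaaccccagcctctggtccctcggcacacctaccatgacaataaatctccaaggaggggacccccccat
Isg15: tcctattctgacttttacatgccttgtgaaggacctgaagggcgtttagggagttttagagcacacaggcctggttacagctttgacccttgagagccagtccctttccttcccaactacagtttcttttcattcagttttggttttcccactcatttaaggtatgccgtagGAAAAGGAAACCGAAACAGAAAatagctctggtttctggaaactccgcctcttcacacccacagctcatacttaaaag
Irgm1: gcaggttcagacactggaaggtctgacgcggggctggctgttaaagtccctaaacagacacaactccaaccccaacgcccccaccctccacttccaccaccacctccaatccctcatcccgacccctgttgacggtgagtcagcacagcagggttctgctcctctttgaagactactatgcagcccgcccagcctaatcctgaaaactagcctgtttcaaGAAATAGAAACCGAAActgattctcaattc
Irf1: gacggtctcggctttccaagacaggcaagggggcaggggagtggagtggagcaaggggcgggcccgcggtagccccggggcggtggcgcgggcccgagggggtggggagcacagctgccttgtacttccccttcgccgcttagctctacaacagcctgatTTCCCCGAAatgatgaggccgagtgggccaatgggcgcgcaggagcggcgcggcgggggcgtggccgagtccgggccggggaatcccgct
The single Gbp2 match lies at −59 to −50 from the start and the Oas3 match at −75 to −66. Oasl1, with the highest challenge difference of all members in wild type, has no match to either set of letters in this window.

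Members with the ISRE letters had median challenge differences of 0.49 in wild type and 0.74 under the Pla2g3-/- label, and those with a window but without the letters 0.35 and 0.29. Over all 560 genes measured that hold the letters, the medians were 0.01 and 0.03, against −0.02 and −0.05 for genes with a window but without them. The GAS letters went the other way among members. Members with them had medians of 0.35 in wild type and 0.40 under the Pla2g3-/- label, and those without 0.43 and 0.52. All 5 GTPase members with a window held the ISRE letters, and none of the 3 antigen processing members did. All 3 nucleic acid sensors with a window held them too, with wild-type challenge differences of 0.12 (Ifih1), 0.23 (Ddx58) and 0.19 (Eif2ak2). The letters were also in 4 of 9 antiviral effectors, 2 of 4 oligoadenylate synthetases, 1 of 4 transcription factors and Isg15.

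Among the transcription factors that drive the response, Irf1 and Irf9 are the brightest. Irf1, an early factor induced by interferon gamma, had log2 levels of 2.48 and 2.80 on the wild-type control and the control labelled Pla2g3-/-, and 2.80 and 3.06 on the challenged arrays. Irf9, the DNA-binding partner of STAT2, stood at 2.82 and 2.62 in control and 2.98 and 2.81 after challenge, so that its wild-type control lay just above its challenged array labelled Pla2g3-/-. All 4 factors had challenge differences above 0 in both labels, with medians of 0.39 and 0.33. Stat2, the partner of IRF9, differed by 0.46 in wild type and 0.78 under the Pla2g3-/- label, and Irf7, the factor that amplifies type I interferon, by 0.49 and 0.41.

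The 5 nucleic acid sensors had median challenge differences of 0.23 in wild type and 0.45 under the Pla2g3-/- label. Ddx58 (RIG-I), which detects viral RNA ends, had log2 levels of 1.44 and 1.18 in control and 1.67 and 1.54 after challenge, wild type first. Ifih1 (MDA5), the sensor of long double-stranded RNA, stood at 1.25 and 1.20 in control and 1.37 and 1.32 after challenge, differences within the scanner's error. Zbp1, a sensor of Z-form nucleic acid that can start necroptosis, was the member of this role with the largest challenge differences, at 0.85 and 0.78. Dhx58 (LGP2), a regulator of the RNA sensors, differed by 0.68 and 0.45. Eif2ak2 (PKR), which halts translation, differed by 0.19 and 0.53.

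Isg15 encodes a ubiquitin-like protein that is attached to other proteins, and Usp18 the protease that removes it. Isg15 had log2 levels of 3.55 and 3.22 on the wild-type control and the control labelled Pla2g3-/-, and 4.41 and 3.99 after challenge. Both challenged arrays were therefore above both controls. Against the control of its own label, Isg15 was 1.81-fold higher after challenge in wild type and 1.70-fold higher under the Pla2g3-/- label. Usp18 stood at 2.28 and 2.17 in control and 2.82 and 2.81 after challenge.

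The 13 antiviral effectors had median challenge differences of 0.39 in wild type and 0.50 under the Pla2g3-/- label. Mx1, a dynamin-like GTPase that traps viral nucleocapsids, had log2 levels of 0.09 and −0.52 in control and 0.93 and 0.74 after challenge, which made it 1.79-fold higher in wild type and 2.40-fold higher under the Pla2g3-/- label. Its relative Mx2 differed by 0.46 and 0.86. Both Mx genes were thus higher on both challenged arrays.

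Ifit3, of the family that binds viral RNA, had challenge differences of 0.93 and 0.86, the largest of this role in wild type. Its probe may also bind the near-identical Ifit3b, so the value is uncertain as to gene. Ifit2 differed by 0.76 and 0.45 and Ifit1 by 0.24 and 0.36.

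Rsad2 (viperin), an enzyme that makes a chain-terminating nucleotide, had log2 levels of 0.03 in wild-type control, −1.07 in control labelled Pla2g3-/-, 0.08 in challenged wild type and −0.57 in challenged labelled Pla2g3-/-. Both wild-type arrays were above both arrays labelled Pla2g3-/-, and the challenge difference in wild type, 0.05, was the smallest of all members by the chosen probes. Bst2 (tetherin), which holds budding virus on the cell surface, showed the same order at 2.65, 1.68, 3.18 and 2.39. Rtp4, a chaperone that also restrains flaviviruses, stood at 4.14 and 3.87 in control and 4.49 and 4.24 after challenge. The other effectors lay between 0.08 (Ifi44, under the Pla2g3-/- label) and 0.54 (Xaf1, in the same cells).

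The oligoadenylate synthetases sense double-stranded RNA and activate RNase L, and they had the highest median challenge difference of any role under the Pla2g3-/- label, 1.07, against 0.66 in wild type. Oasl1, a family member without the enzyme activity, had log2 levels of 0.16 in wild-type control, 0.72 in control labelled Pla2g3-/-, 1.41 in challenged wild type and 1.89 in challenged labelled Pla2g3-/-. It was 2.39-fold higher after challenge in wild type and 2.25-fold higher under the Pla2g3-/- label, the only member past 2-fold in both by its chosen probe. The second probe of Zbp1 was also past it, at 2.19-fold and 2.25-fold. Oasl1 was also higher in the label Pla2g3-/- with and without challenge, unlike most members.

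Oas2 stood at 2.87 and 2.13 in control and 3.72 and 3.20 after challenge, 1.80-fold and 2.10-fold higher. Oas3 stood at −2.77 and −3.72 in control and −2.16 and −2.53 after challenge, 1.53-fold and 2.28-fold higher. In both genes the control labelled Pla2g3-/- was the lowest array, and the challenged arrays lay closer together than the controls. Oas1a stood at 4.41 and 4.29 in control and 4.92 and 4.70 after challenge. Its probe may also bind near-identical Oas1 copies such as Oas1g. Oasl2 stood at 2.74 and 2.84 in control and 3.40 and 3.45 after challenge.

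The GBP and IRG GTPases, which attack the membranes of vacuoles that hold intracellular pathogens and respond strongly to interferon gamma, had median challenge differences of 0.50 in wild type and 0.91 under the Pla2g3-/- label. Gbp2 had log2 levels of −0.04 in wild-type control, −0.38 in control labelled Pla2g3-/-, 0.50 in challenged wild type and 1.38 in challenged labelled Pla2g3-/-. It was 1.45-fold higher after challenge in wild type and 3.40-fold higher under the Pla2g3-/- label, the largest challenge difference of any member by the chosen probes. Iigp1 followed the same order, at −0.83, −1.05, −0.36 and 0.15, and was 1.39-fold and 2.29-fold higher.

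Igtp (Irgm3), which keeps other IRG proteins inactive on host membranes, stood at 1.22 and 0.82 in control and 1.48 and 1.67 after challenge. Its probe was printed 10 times, and its challenge differences were 0.26 ± 0.04 (SE over spots of 1 array pair, which leaves out the spread between animals) in wild type and 0.85 ± 0.04 under the Pla2g3-/- label. Irgm1, with the same guarding role, stood at 1.93 and 1.57 in control and 2.40 and 2.51 after challenge. For Gbp2, Iigp1, Igtp and Irgm1 the label Pla2g3-/- was the lower in control and the higher after challenge. Gbp3, at 0.79 and 0.88, did not change order. GBP and IRG genes lie in clusters of close copies, so probes of this role may bind more than 1 gene.

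Among genes of antigen processing the differences were small. Psmb8, a subunit of the immunoproteasome, had log2 levels of 1.66 and 1.86 in control and 1.91 and 1.91 after challenge, and Psmb9, another such subunit, 1.52 and 1.76 in control and 1.62 and 1.77 after challenge. Tap1, a subunit of the transporter that loads peptides for class I molecules, was printed 10 times and differed by 0.23 ± 0.03 in wild type and 0.15 ± 0.03 under the Pla2g3-/- label (SE over spots). The medians of the 3 genes were 0.23 and 0.06.

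**Figure D2:**
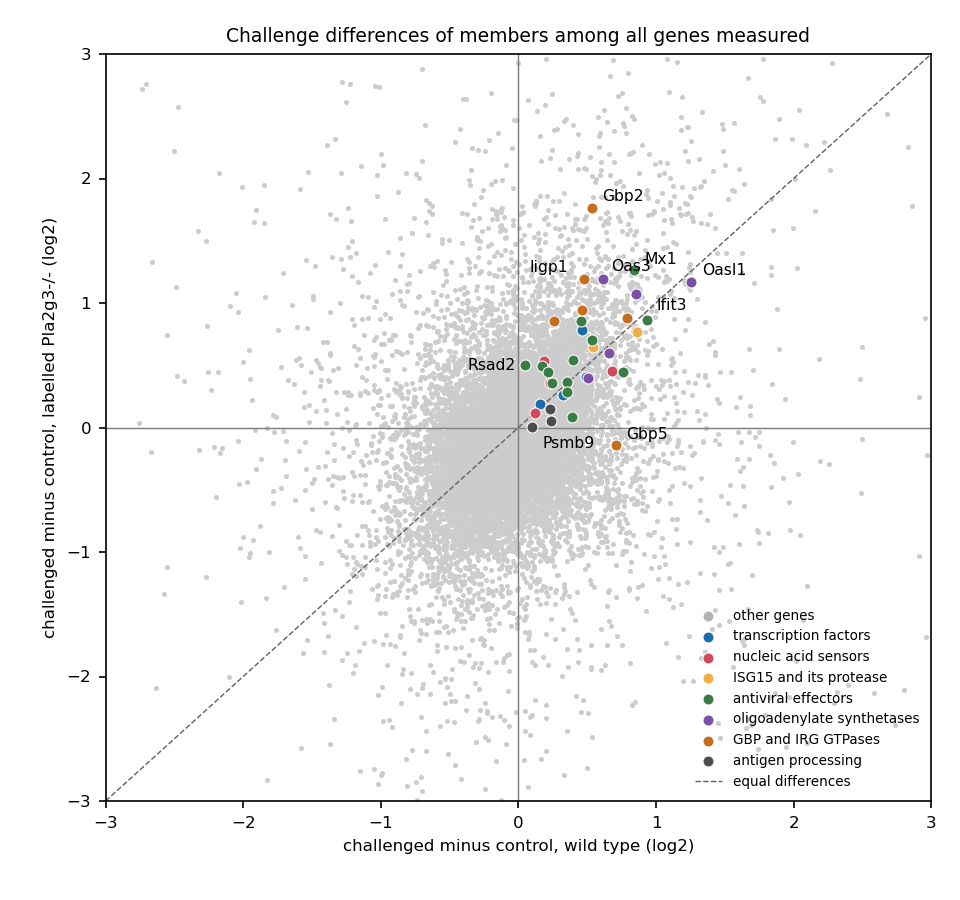
Challenge difference (log2, challenged minus control) in wild type (horizontal axis) against that under the Pla2g3-/- label (vertical axis), 1 array per group. Grey points are other genes with a value in all 4 comparisons, of which 134 lie outside the axes, coloured points are the 38 interferon-stimulated genes by role, and the dashed line marks equal differences. All members lie right of 0, Gbp2 is the highest and Gbp5 the only one below 0 on the vertical axis.

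Between the labels most members were lower in the label Pla2g3-/-, and more so without challenge. Without challenge 30 of 38 were below 0, against 54.1% of all genes, with a median of −0.24 against −0.03 for all genes. With challenge 25 were below 0, against 60.5% of all genes, with a median of −0.16 against −0.05. The share below 0 with challenge is thus near that of all genes.

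Without challenge 1 member, Rsad2 (2.14-fold lower), was at least 2-fold lower (1.89% of all genes) and none was 2-fold higher (3.22% of all genes). At 1.5-fold 7 were lower (5.96% of all genes) and none higher (6.65% of all genes). The 7 were Rsad2, Bst2 (−0.97), Oas3 (−0.95), Mx2 and Eif2ak2 (both −0.80), Oas2 (−0.74) and Mx1 (−0.61). By role and by the chosen probes, 12 of 13 antiviral effectors and all 6 GTPases were below 0 (54.1% of all genes), while all 3 antigen processing genes were above 0. In the effector and GTPase roles, second probes of Gbp5 (0.16), Xaf1 (3.99) and Cmpk2 (0.69) were above 0, and those of Iigp1 (−0.06) and Irgm1 (−0.41) below.

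With challenge none was 2-fold higher (3.9% of all genes) or 2-fold lower (2.6% of all genes). At 1.5-fold Gbp2 (0.89) was the 1 member higher (7.87% of all genes) and 3 were lower, Gbp5 (−0.93), Bst2 (−0.80) and Rsad2 (−0.65) (7.46% of all genes). The second Gbp5 probe gave 1.62 in place of −0.93. Both wild-type arrays were above both arrays labelled Pla2g3-/- for 7 members, Irf9, Eif2ak2, Ifit1, Rsad2, Bst2, Ifi44 and Gbp5 (23.2% of all genes). The reverse order was seen for 1, Psmb9 (11.6% of all genes). Neither count is above the share of all genes.

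**Figure D3:**
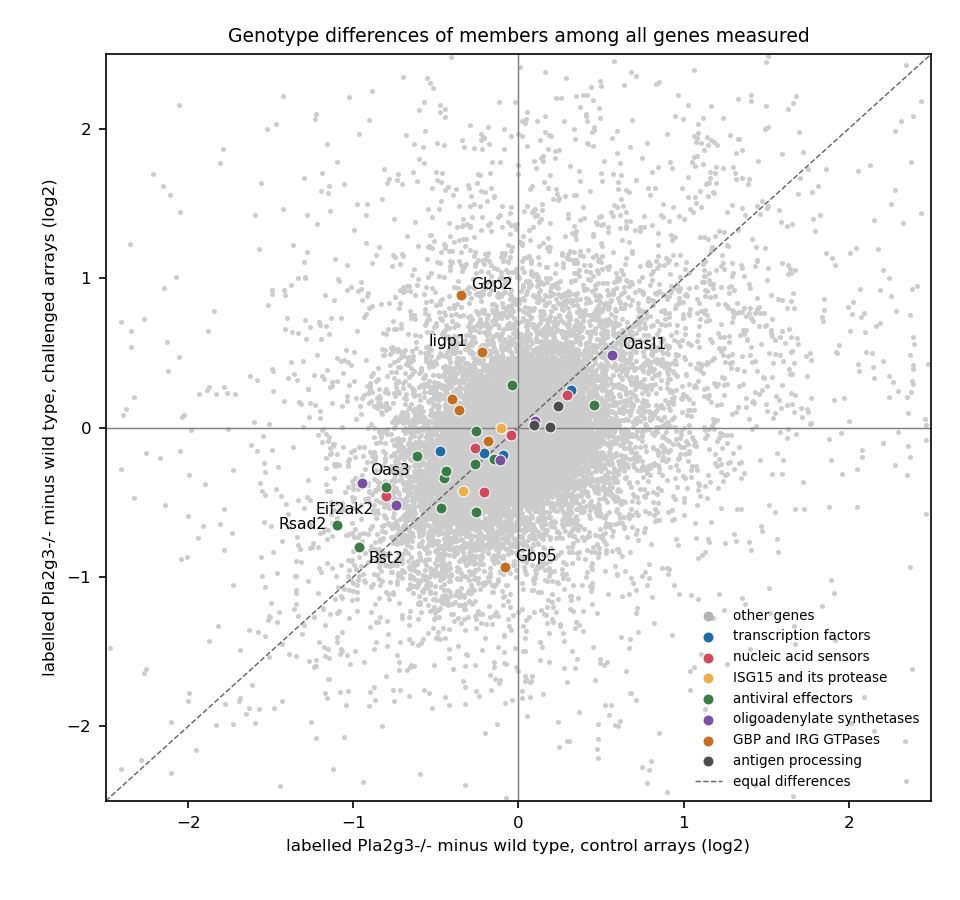
Difference between the labels (log2, labelled Pla2g3-/- minus wild type) on the control arrays (horizontal axis) against that on the challenged arrays (vertical axis), 1 array per group. Grey points are other genes with a value in all 4 comparisons, of which 203 lie outside the axes, coloured points are the 38 interferon-stimulated genes by role, and the dashed line marks equal differences. Most members lie left of 0, Rsad2 farthest, while Gbp2 and Iigp1 lie left of 0 and above it.

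The genotype and challenge differences share arrays. The control labelled Pla2g3-/- was the lowest of the 4 arrays for 29 members, and a low value there lowers the genotype difference without challenge and raises the challenge difference in that label. Set against the control of the other label instead, the challenged wild-type array had 8 members at least 2-fold higher (2.34% of all genes), a median of 0.67 and 37 members above 0. The challenged array labelled Pla2g3-/- then had 3 at least 2-fold higher (4.14% of all genes), a median of 0.27 and 31 above 0. This same control array held the high T cell markers, and their part in these values was not tested.

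Over all 4 arrays, limma was fitted with additive terms for genotype and challenge, which left 1 residual degree of freedom. Its error is the departure of the 4 pooled arrays from additivity, so a true difference in response between the labels counts as error. The p-values and SEs of this fit are therefore no measure of the spread between animals. After Benjamini-Hochberg adjustment over 23727 genes, limma called none of the members for challenge, where 5 genes were called in all (0.0211%). At an unadjusted p under 0.05, 29 of 38 members passed, all higher after challenge, against 15.5% of all genes in either direction. Oasl1 came closest, with a challenge estimate of 1.21 ± 0.09 (SE) and a limma adjusted p of 0.0958. For genotype limma called none of the members and 7 genes in all (0.0295%), and 18 members passed an unadjusted p under 0.05, 3 of them higher in the label Pla2g3-/-, against 12.6% of all genes. Bst2 came closest there, at −0.88 ± 0.10 and a limma adjusted p of 0.0885. The median member estimates were 0.51 for challenge and −0.17 for genotype.

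Of the 38 members 11 had several probes, and for 4 of them a second probe well above background on all arrays differed from the chosen one by over 0.5 (log2) in at least 1 comparison. For Gbp5 the chosen probe (chr3:142181426-142181485, mm9) had log2 levels of −1.17, −1.25, −0.46 and −1.39, in the order wild-type control, control labelled Pla2g3-/-, challenged wild type and challenged labelled Pla2g3-/-. The second probe (chr3:142184779-142184838), 3353 bases downstream and the only Gbp5 probe whose accession RefSeq matched, was 1.40-fold higher after challenge in wild type and 3.88-fold higher under the Pla2g3-/- label. By this probe Gbp5 was highest on the challenged array labelled Pla2g3-/-, as Gbp2 and Iigp1 were, and the negative value above comes from the brighter probe alone.

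For Xaf1, a proapoptotic gene, the second probe (chr11:72127175-72127234), 5006 bases from the chosen one (chr11:72122169-72122228), was 15.9-fold higher in the label Pla2g3-/- without challenge and 7.11-fold higher with it, where the chosen probe was lower, at −0.44 and −0.29. The second probe of Cmpk2, a mitochondrial nucleotide kinase next to Rsad2, was higher in the label Pla2g3-/- by 0.69 without and 1.40 with challenge, against −0.04 and 0.28 for the chosen probe. For Iigp1 both probes moved the same way, the second with challenge differences of 1.00 and 1.86. The second Xaf1 probe was also lower after challenge under the Pla2g3-/- label, at −0.80 against 0.54 for the chosen probe. Smaller differences changed sign between probes too, and the second probe's values follow. After challenge in wild type they were Ifih1 (−0.06) and Cmpk2 (−0.13). Between the labels they were Zbp1 (−0.08 without and −0.04 with challenge) and, without challenge, Gbp5 (0.16). A second Irf1 probe was not above background on any array.

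**Figure D4:**
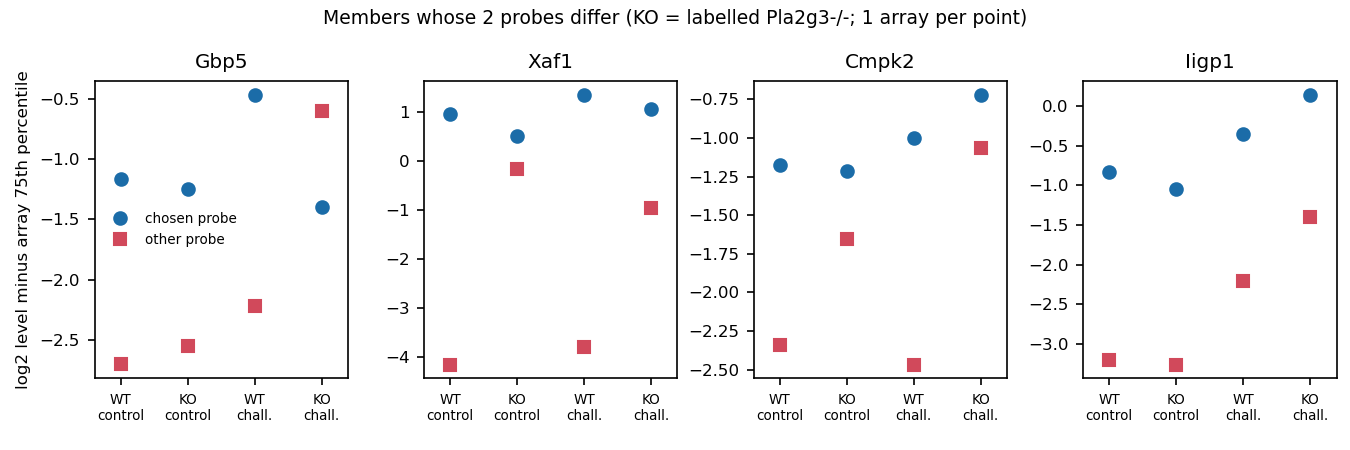
Log2 level relative to the array's 75th percentile (vertical axis) of the 2 probes of Gbp5, Xaf1, Cmpk2 and Iigp1 on the 4 arrays (horizontal axis), with the chosen, brighter probe as circles and the other as squares. The Gbp5 and Xaf1 probes order the arrays differently, and the Iigp1 probes order them alike.

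Of 23 symbols listed for interferons, the ligands upstream, 16 were on the array and 13 were measured. The list holds old and new symbols of the same type III genes. Ifnb1, Ifna4 and Ifne were not well above background on any array. In wild type none was 2-fold higher (1.89% of all genes) or lower (1.69%), and under the Pla2g3-/- label 1 of 13 was 2-fold higher (3.88% of all genes). This was Ifng, interferon gamma, with log2 levels of −6.09, −6.66, −6.55 and −4.37 in the array order above, highest on the challenged array labelled Pla2g3-/-. Its probe was dim on every array, with a processed signal of 96.0 on that array, whose 75th percentile was 1979, and 18.2 to 29.2 on the others. Ifnk, an interferon of epithelial cells, differed after challenge by 0.85 and 0.82.

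Of 20 symbols of receptor and signalling genes, 1 of them an older symbol of another, 19 were measured. After challenge 2 were at least 2-fold higher in wild type (1.89% of all genes) and 4 under the Pla2g3-/- label (3.88%), and none was lower. Socs1 and Socs3, which encode feedback inhibitors of cytokine signalling, were the pair in wild type, at 1.01 and 1.06. In cells labelled Pla2g3-/- the values were 1.05 for Socs1, 3.10 for Socs3, 1.18 for the receptor chain gene Ifngr2 and 1.26 for Irf4. The receptor gene Ifnar1 differed by −0.04 and 0.09. Of 14 genes of the sensing pathways, none was 2-fold higher in wild type (1.89% of all genes) and 3 were under the Pla2g3-/- label (3.88%), namely Tlr8 (at least 1.69, a bound because the control labelled Pla2g3-/- was not well above background), the DNA-sensing adaptor gene Tmem173 (STING, 1.46) and the Toll-like receptor adaptor gene Myd88 (from a log2 level of 0.36 to 1.46).

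Of 44 other interferon-stimulated genes 41 were measured, and their median challenge differences, 0.28 in wild type and 0.31 under the Pla2g3-/- label, lay below those of the 38 members. In wild type 1 was at least 2-fold higher (1.89% of all genes) and none lower (1.69%), and under the Pla2g3-/- label 3 were lower (3.38%) and 6 higher (3.88%). The GTPase gene Tgtp1 passed 2-fold in both, at 1.05 and 1.44, and may share its probe with Tgtp2 (0.78 and 1.30). The DNA-binding genes Ifi204 and Ifi205 were at 0.46 and 0.71 in wild type and 1.46 and 1.96 under the Pla2g3-/- label. The 3 lower genes, Gbp4 (−1.98), Gbp8 (−2.35) and Gbp11 (−2.40), were high on the control labelled Pla2g3-/-, by 1.84, 2.56 and 2.60 over the wild-type control. The T cell markers were highest on that array too, and their part in these values was not tested.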

How the data were processed

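Total RNA was pooled from 4 samples per group and hybridised to 1 single-colour (Cy3) Agilent array per group. Per the submitters' processing notes, the deposited scanner files hold intensity values from Agilent Feature Extraction 11.5.1.1, with background subtraction and detrending within the array per the file headers, which place the probes on mm9. The authors' deposited series table equalled the processed signal divided by 1 constant per array for 44397 of 44397 features, with a log2 ratio that ranged over at most 1.59e-06 within an array. The constant lay close to the 75th percentile used here (1987 against 1986 on the wild-type control). That match sets the table's scale, centring and direction, and its column medians were 0.0875, 0.0879, 0.0860 and 0.0850.

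Levels are log2 processed signal minus the array's 75th percentile over 43020 non-control spots. Outlier spots were left out (128 to 155 per array), spots of 1 probe were averaged, 19 of 39429 probes had no usable value, and the brightest probe stood for a gene. A gene above background on only 1 of 2 arrays compared has a bound as its difference. Effects over all 4 arrays came from an additive limma 3.58.1 fit (R 4.3.3) with 1 residual degree of freedom, a variance trend and Benjamini-Hochberg adjustment at 0.05 over 23727 genes. It assumes that genotype and challenge add up. Promoter windows came from RefSeq (GRCm38.p6), searched on both strands.

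The members and all gene lists were chosen with earlier results of these data known. Every member may be named. Levels on every array are given for members at least 2-fold different in any comparison and for the 2 brightest members of each role. Of the pathway lists, genes with the largest differences are named. Alternatives were normexp background correction (offset 50), quantile normalization, scaling to the median, the mean of a gene's probes, filters on dim probes, kept outlier spots, the deposited table, a 1.5-fold threshold, the other control array and a fit with no variance trend.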

Additional observations from a re-analysis of the deposited data

Results flagged for a closer look

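Several genes moved in opposite directions in the groups compared. None of these differences was tested, since each group has 1 array. The genotype difference of Gbp2 was below 0 without challenge and above 0 with it, a gap of 1.23 (log2). The same held for Igtp (0.59) and Iigp1 (0.72). The challenge difference of Gbp5 was above 0 in wild type and below 0 under the Pla2g3-/- label, a gap of −0.85, on its brightest probe only. The second Xaf1 probe had a gap of −1.16 between the challenge differences. Among pathway genes, the challenge differences of Ifng, Irf4 and Tlr8 were below 0 in wild type and above 0 under the Pla2g3-/- label, with gaps of 2.75, 1.80 and at least 1.97. The gap of Tlr8 is a bound because its signal on the control labelled Pla2g3-/- was not well above background. All 3 probes were dim in wild type, where the negative differences arise. Processed signals in wild-type control and challenged wild type were 29.2 and 19.4 for Ifng, 97.6 and 61.3 for Irf4, and 12.9 and 9.62 for Tlr8.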

How the results depend on the processing

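Of 148 recomputed counts and medians, 131 stayed close to the reported value. Close means a count equal to or within 1.5-fold of the reported one, or a median within 0.09 (log2) of it. No paired analysis was possible because each group has 1 array. With probes of a gene averaged, 1 member in place of none was 2-fold higher in the label Pla2g3-/-, both without and with challenge. A 1.5-fold threshold gave 12 members higher after challenge in wild type and 17 under the Pla2g3-/- label, 7 lower in that label without challenge, and 1 higher and 3 lower with it. Against the other control array, 8 and 3 members were 2-fold higher, with medians of 0.67 and 0.27. Without a variance trend, limma called 0 genes for challenge (3059 at an unadjusted p under 0.05) and 0 for genotype (3067). The genotype count, 7 in the fit as reported, was 0 with normexp (2773 at an unadjusted p under 0.05), 4 with quantile normalization, 19 with median scaling and 1 with the mean of probes. The cause of these changes was not tested. Some settings could hardly change a member value, so their agreement carries little weight. The filters on dim probes, the kept outlier spots and the deposited table shifted none by more than 0.0006 (log2). All 38 chosen probes were well above background, and the deposited table is the same signal rescaled. Of 1216 recomputed member values, 25 moved by more than 0.09 (log2), the median spot SD of a difference, 21 of them with the mean of probes. That setting turned the sign for Gbp5 (to 0.91 after challenge under the Pla2g3-/- label, and to 0.04 and 0.35 between the labels without and with challenge), Xaf1 (−0.13, 1.77 and 1.27 in the same order), Cmpk2 (0.32 without challenge) and Irf1 (−0.10 without challenge). Scaling or background correction turned the sign of 4 values near 0, for Psmb9 (−0.01), Usp18 (0.02), Parp14 (0.01) and Psmb8 (−0.02). With 4 arrays, 1 per group, the number of arrays limits the precision.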

Other observations

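Genes of class I antigen presentation beyond Tap1, Psmb8 and Psmb9 gave small differences of 1 direction. All 11 measured of 12 listed were above 0 after challenge in both labels, against 25.8% of all genes. Their medians were 0.12 in wild type and 0.15 under the Pla2g3-/- label. None was 2-fold higher in wild type (1.89% of all genes) or under the Pla2g3-/- label (3.88%). The largest in wild type was Psmb10 (0.52), a subunit of the immunoproteasome, and under the Pla2g3-/- label Nlrc5 (0.84), the transcriptional activator of class I genes. The class I heavy chain gene H2-K1 differed by 0.09 and 0.02 and its partner B2m by 0.01 and 0.09. These values, like both medians, are smaller than the scanner's error of a member's difference, about 0.20.

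Markers of plasmacytoid dendritic cells, the cells known for high type I interferon output, did not move together. Siglech had log2 levels of 5.26 to 5.55 over the 4 arrays, near those of the epithelial gene Krt5 (5.43 to 5.68). Whether its probe reads these dendritic cells was not tested. Ccr9, which T cells also use, was at 1.15 on the control labelled Pla2g3-/- and at −3.48 to −2.09 on the others. After challenge Ly6d differed by 0.53 in wild type and 0.26 under the Pla2g3-/- label, and Tcf4 by −0.34 in wild type.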
